A study of Homo sapiens with 8 samples.

Results

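The human erythroleukaemia line HEL92.1.7 was compared, without drug, with HEL OTX P/R, the derivative that the labels call OTX persister-resistant. OTX015 is an inhibitor of the BET bromodomain proteins, which read acetylated histones. The comparison rests on every untreated library of the study, 2 of HEL92.1.7 parental cells and 2 of HEL OTX P/R cells, so 4 of 8 libraries. All genes with at least 1 FPKM (fragments mapped to a gene, scaled for transcript length and library size) in at least 2 of the 8 libraries were kept, 11255 of 19718. The other 4 libraries, 2 of each line, were exposed to 1000 nM OTX015 for 8 hours and served here to look at the same line difference in separate cells. Both lines are labelled as leukaemia blast cells of a secondary acute myeloid leukaemia and were grown in RPMI medium with serum. The labels give neither the way HEL OTX P/R was selected, nor whether it is 1 clone or a pool, nor how long it was off drug before RNA was taken. The labels call the replicates biological and independently treated, and name no separate derivation of the resistant line, so every statement below is about 1 parental and 1 derived population.

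HEL cells carry features of several blood lineages at the same time, above all of red cell precursors and of megakaryocytes, the cells that shed platelets. BET proteins recruit the elongation kinase P-TEFb to active promoters and enhancers, and the oncogene MYC is a much studied target of their inhibitors. Resistance to such drugs in leukaemia has been linked in earlier work to signalling through β-catenin and the TCF/LEF factors, and JMJD6, a nuclear oxygenase, is known as a partner of BET proteins. Lineage genes had the levels of such a line. HBG2, a fetal globin, was at 9651 FPKM in both parental and 8990.3 FPKM in both P/R libraries, and GATA1, the master regulator of both lineages, lay between 327 and 343 FPKM in the 4 libraries. ITGA2B, the platelet integrin CD41, lay between 300.1 and 390.1 FPKM. Defining markers of mature or foreign cells were at or near 0: EPCAM (epithelium), DCN (stroma), MS4A1 (B cells), ELANE (neutrophils) and CMA1 (mast cells) were listed at 0 in all 4 libraries, CD3E (T cells) did not exceed 0.04 FPKM, and VWF, a platelet gene, did not exceed 0.015 FPKM.

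Every library sums to the same total of 678133 FPKM and has the same ranked values, so the depth behind them is unknown and a difference is relative to the rest of the transcriptome. Replicates were alike (r across genes 0.9957 in parental and 0.9966 in P/R cells), and libraries of different lines less so (0.9834 to 0.9843), and no library stood apart. Between the untreated lines, differences in log2(FPKM + 1) had an adjusted p below 0.05 in limma for 2647 of 11255 genes (23.5%), which are called genes from here on. P/R cells were higher for 1312 genes (11.7%) and lower for 1335 (11.9%). These shares are the background against which every gene group is read below. A difference of at least 1 on the log2 scale was seen for 200 of them (1.78%), 112 higher and 88 lower. The 2 libraries of one line did not overlap those of the other for 7014 genes (62.3%), a common outcome with 2 libraries a group, and an exact permutation test of 2 against 2 cannot go below p = 0.333 for a single gene. The log2 scale with 1 added understates the change of genes of low level.

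**Figure D1:**
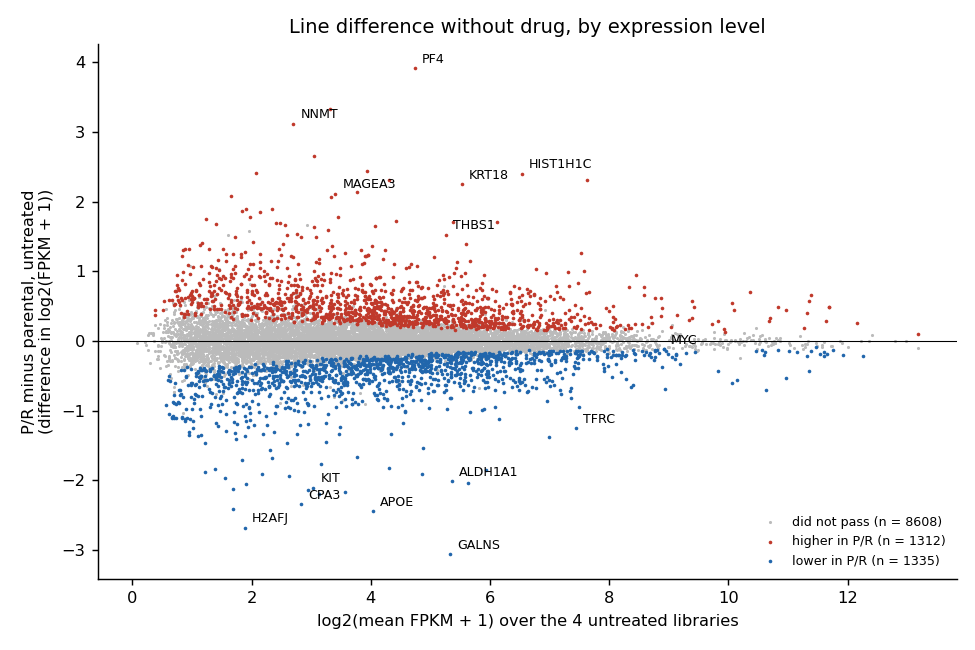
Each point is 1 of the 11255 tested genes, with log2(mean FPKM + 1) over the 4 untreated libraries on the x axis and the P/R minus parental difference in log2(FPKM + 1) on the y axis. The 1312 genes higher in P/R cells (red) and the 1335 lower (blue) lie at all levels, with PF4 at 3.91 and GALNS at -3.06 as the extremes.

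The largest rise was that of PF4, platelet factor 4, the chemokine stored in platelet granules. It was at 2.66 and 2.00 FPKM in the parental libraries and at 47.4 and 50.4 FPKM in P/R, a difference of 3.91 in log2(FPKM + 1) (SE 0.12, adjusted p = 1.77e-07). Its near-identical copy PF4V1 moved the same way from 0.0432 and 0.0671 to 1.67 and 1.58 FPKM, and reads that fit either copy may have been split between them. NNMT, nicotinamide N-methyltransferase, was at 0.490 and 0.216 FPKM in parental and at 10.8 and 10.6 FPKM in P/R cells (log2 difference 3.12, adjusted p = 7.93e-07). Among the untreated libraries, NNMT reached 1 FPKM, the level of the filter, only in P/R cells, the line where it is high. ZFPM2, a GATA cofactor also called FOG2, rose from 1.38 and 1.17 to 13.8 and 12.9 FPKM (2.66). MYLK, the myosin light chain kinase, rose from 5.72 and 5.53 to 30.9 and 32.7 FPKM (2.31), and KALRN, an exchange factor for small GTPases, from 3.71 and 4.46 to 20.0 and 22.5 FPKM (2.13). The remaining genes among the 15 largest rises were the histones HIST1H1C and HIST1H2BK, keratin KRT18, the exporter ABCC3, the cancer-testis antigens GAGE12B, MAGEA2B, MAGEA3 and MAGEA6, C1orf116 (2.43) and the homeobox gene SIX3 (1.85). Replicates of GAGE12B lay far apart.

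**Figure D2:**
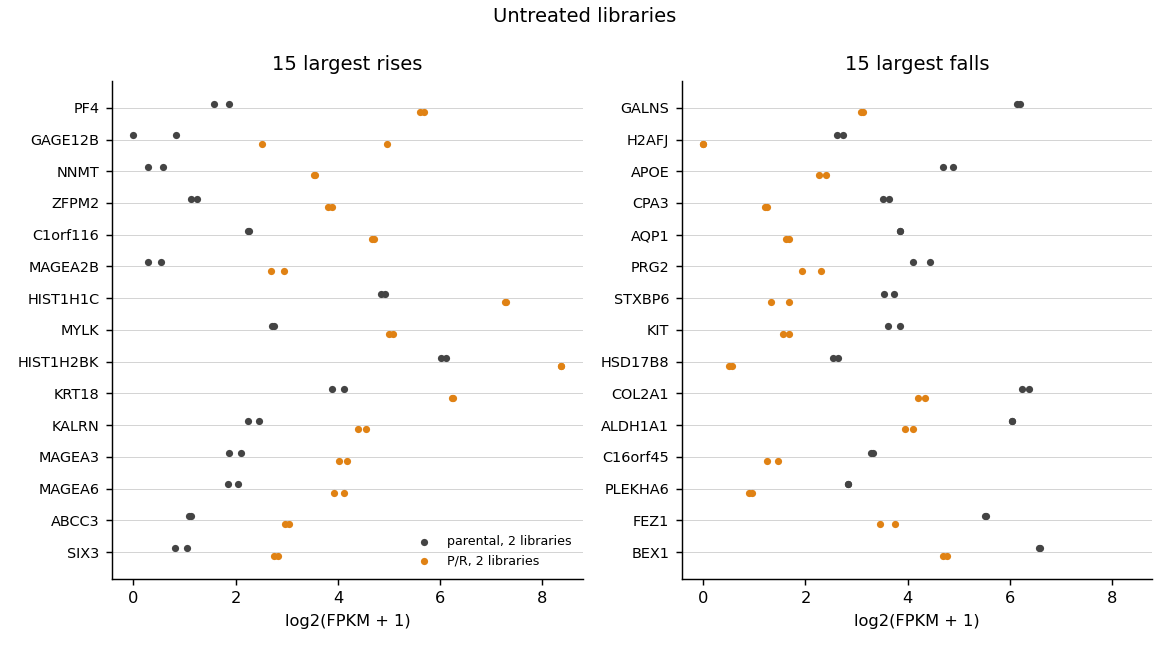
Each point is 1 untreated library, on a log2(FPKM + 1) axis, for the 15 largest rises (left) and the 15 largest falls (right) among genes that passed. The 2 parental libraries (black) and the 2 P/R libraries (orange) do not overlap for any of them, which the rule for choosing them required, and GAGE12B has the widest gap between replicates.

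Cancer-testis antigens, mostly genes of the X chromosome that adult tissues outside the germline keep silent, made up 4 of those 15 genes. Of 65 listed members in the table, 56 were under the filter on low values and 9 were tested. MAGEA2, MAGEA2B, MAGEA12 and GAGE12B passed that filter only through P/R libraries, so a difference was built into their selection. Of the other 5, 3 rose (MAGEA3, MAGEA6 and PRAME) and none fell. MAGEA3 was at 2.67 and 3.28 FPKM in parental and at 15.3 and 17.1 FPKM in P/R cells (log2 difference 2.11, SE 0.11, adjusted p = 2.66e-06). MAGEA6 went from 2.62 and 3.11 to 14.1 and 16.4 FPKM (2.07), MAGEA2B from 0.224 and 0.445 to 5.45 and 6.72 FPKM (2.41), and MAGEA12 from 0.238 and 0.268 to 2.98 and 3.04 FPKM (1.68). MAGEA1, already expressed in the parental line at 50.2 and 51.1 FPKM, had 44.7 and 45.95 FPKM in P/R cells and did not pass (adjusted p = 0.0822). PRAME, a cancer-testis gene outside the MAGE family, rose from 47.04 and 46.1 to 65.5 and 65.8 FPKM. GAGE12B belongs to a family of near-identical copies and differed between replicates: it was at 0.790 and 0 FPKM in parental and at 4.74 and 30.3 FPKM in P/R cells. Its call was lost without the second parental library (adjusted p = 0.0605) and when no genes were filtered (0.129). The MAGEA copies share sequence, so they are not independent of each other, and the sources do not tell how reads were divided among them. The promoters of MAGEA3 and MAGEA6 in RefSeq (GRCh38.p14, from 250 bases before to 50 bases after the start) show how alike the copies are. The window at chrX:152698544-152698843 on the + strand (MAGEA3) and that at chrX:152769640-152769939 on the - strand (MAGEA6) were identical at 300 of 300 bases, and neither holds any of the 3 motifs searched below, so no letter is in capitals.
MAGEA3 and MAGEA6: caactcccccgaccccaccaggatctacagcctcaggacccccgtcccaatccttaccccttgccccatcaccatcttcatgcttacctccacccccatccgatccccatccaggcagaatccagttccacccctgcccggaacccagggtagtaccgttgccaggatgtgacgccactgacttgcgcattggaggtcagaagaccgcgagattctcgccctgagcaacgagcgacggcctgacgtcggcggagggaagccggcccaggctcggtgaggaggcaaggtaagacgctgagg

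Among the falls, GALNS, a lysosomal sulfatase that degrades keratan sulfate, stood first. It was at 72.3 and 69.4 FPKM in parental and at 7.71 and 7.46 FPKM in P/R cells (log2 difference -3.06, SE 0.073, adjusted p = 4.40e-08). The histone variant gene H2AFJ was at 5.16 and 5.67 FPKM in parental cells and was listed at 0 in both P/R libraries, and also in both treated P/R libraries. It thus passed the filter on low values only through parental libraries. APOE, the lipid carrier apolipoprotein E, went from 24.7 and 28.5 to 4.28 and 3.84 FPKM (-2.45). AQP1, the water channel of red cells, went from 13.4 in both parental libraries to 2.07 and 2.20 FPKM (-2.20). The cartilage collagen COL2A1 fell from 82.1 and 74.8 to 19.3 and 17.5 FPKM (-2.03), ALDH1A1, a retinaldehyde dehydrogenase used to mark stem-like cells, from 64.8 in both to 14.5 and 16.2 FPKM (-2.01), and the X-linked gene BEX1 from 95.4 and 93.9 to 24.9 and 26.1 FPKM (-1.85). HSD17B8, a mitochondrial fatty acid synthesis enzyme, went from 5.20 and 4.84 to 0.418 and 0.469 FPKM (-2.06). Among the untreated libraries, HSD17B8 reached 1 FPKM, the level of the filter, only in parental cells. CPA3, PRG2 and KIT are described with the mast cell genes. The other 4 were STXBP6 (-2.14), C16orf45 (-1.94), PLEKHA6 (-1.91) and FEZ1 (-1.91). The rule for choosing the 15 required that the lines not overlap. STXBP6 lies in a stretch of chromosome 14 that was lower as a whole (median -0.53).

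The promoters of 3 of these genes are shown because each holds 1 of the 3 motifs searched. These were ATCAAAG, bound by TCF/LEF factors, CACGTG, the E-box bound by MYC and its relatives, and AGATAA, which is bound by the factors of the GATA family. Both strands were searched and capitals mark the matches. In HSD17B8 the match, CTTTGAT, is the TCF/LEF motif on the opposite strand. The windows, in GRCh38.p14, are chr16:88856898-88857197 on the - strand for GALNS, chr6:33204405-33204704 on the + strand for HSD17B8 and chr3:148865046-148865345 on the + strand for CPA3.
GALNS: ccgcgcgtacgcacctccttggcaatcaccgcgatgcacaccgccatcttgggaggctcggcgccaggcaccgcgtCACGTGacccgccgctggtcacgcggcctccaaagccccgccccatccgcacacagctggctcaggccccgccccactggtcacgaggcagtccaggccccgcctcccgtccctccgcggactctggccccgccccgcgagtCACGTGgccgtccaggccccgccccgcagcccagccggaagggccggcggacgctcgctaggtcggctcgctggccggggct
HSD17B8: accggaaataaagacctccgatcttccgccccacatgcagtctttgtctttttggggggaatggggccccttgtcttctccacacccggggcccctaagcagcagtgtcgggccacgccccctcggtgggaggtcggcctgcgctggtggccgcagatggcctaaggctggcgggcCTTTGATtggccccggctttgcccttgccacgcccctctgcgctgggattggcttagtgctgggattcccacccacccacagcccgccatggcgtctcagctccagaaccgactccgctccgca
CPA3: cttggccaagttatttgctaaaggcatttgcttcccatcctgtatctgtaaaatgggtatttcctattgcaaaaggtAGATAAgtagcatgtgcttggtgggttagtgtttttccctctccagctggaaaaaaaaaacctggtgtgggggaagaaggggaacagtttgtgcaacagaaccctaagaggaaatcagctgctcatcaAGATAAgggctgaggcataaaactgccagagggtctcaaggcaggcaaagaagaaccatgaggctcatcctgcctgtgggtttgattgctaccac
Of the 15 falls, 12 had a promoter entry; 4 held the E-box, 2 the GATA motif and 1 the TCF/LEF motif. Of the 15 rises, 9 had an entry; 1 held the E-box and none the others. Among 9231 promoters of tested genes, 981 (10.6%) held the E-box, 460 (4.98%) the GATA motif and 127 (1.38%) the TCF/LEF motif. A match is a string of letters, not a measured site.

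Of the gene lists, that of megakaryocytes and platelets had the most members that rose. Among 45 tested members of 53, 31 rose and 2 fell, while 12 were not called (median difference 0.431), and 11.7% of all genes rose. PF4V1 and ITGA2 among the rises passed the filter only through P/R libraries, and 30 of the 33 were also called in the same direction in the treated libraries. Beside PF4, the granule and adhesion proteins led. THBS1, thrombospondin 1, rose from 19.9 and 17.8 to 56.9 and 55.1 FPKM (log2 difference 1.52, adjusted p = 8.55e-06), and SELP, P-selectin of the granule membrane, from 4.63 and 4.78 to 13.98 and 13.5 FPKM (1.37). ANGPT1, a growth factor for the TIE2 receptor that platelets release, rose from 1.76 and 1.90 to 7.52 and 8.53 FPKM (1.67), but had a difference of 0.23 in the treated libraries, where it did not pass (adjusted p = 0.29). RAB27B, needed for granule secretion, rose by 1.52.

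The surface receptors that bind von Willebrand factor and collagen rose with them. GP9 went from 109.1 and 105.2 to 245.5 and 274.4 FPKM (log2 difference 1.27) and GP1BA, its partner, from 31.3 and 29.9 to 67.7 and 70.7 FPKM (1.15, adjusted p = 4.35e-06). GP1BA lies in a stretch of chromosome 17 that was higher as a whole (median 0.517), and was still called with its neighbours' running median subtracted. The collagen receptor GP6 went from 25.3 and 25.2 to 48.6 and 46.9 FPKM (0.89), the thromboxane receptor TBXA2R from 6.13 and 5.81 to 11.8 and 12.1 FPKM (0.90) and the fibrinogen receptor chain ITGB3 from 40.2 and 41.4 to 75.4 and 72.1 FPKM (0.84). Its partner chain ITGA2B, the most abundant of these receptor genes, went the other way, from 390.1 and 366.2 to 325.6 and 300.1 FPKM (-0.27, adjusted p = 0.0132), and that fall was not called once the running median of its chromosomal neighbours was subtracted (-0.02, adjusted p = 0.849). TBXAS1, thromboxane synthase, fell by 0.51. Among the regulators, FLI1 rose from 137 and 134 to 185 and 184 FPKM (0.44) and MEIS1 from 8.76 and 8.73 to 16.9 and 17.9 FPKM (0.91). PPBP, another platelet chemokine, was under the filter, at 0 and 0.107 FPKM in parental and 0.784 and 0.837 FPKM in P/R cells. These are bulk libraries, in which a larger share of megakaryocyte-like cells and more RNA per cell cannot be told apart.

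Among mast cell, basophil and eosinophil genes, 15 of 29 were under the filter on low values and 14 were tested. Of these, 5 passed the filter only through parental libraries (TPSAB1, TPSB2, SIGLEC6, IL1RL1 and ALOX5), so their falls were built into the selection. Of the other 9, 5 fell, 1 rose and 3 did not pass. CPA3, the mast cell carboxypeptidase, was at 11.4 and 10.45 FPKM in parental and at 1.30 and 1.39 FPKM in P/R cells (log2 difference -2.35, adjusted p = 7.30e-06). PRG2, the eosinophil major basic protein, went from 20.7 and 16.3 to 2.80 and 3.91 FPKM (-2.16). KIT, the stem cell factor receptor, went from 11.3 and 13.4 to 1.97 and 2.22 FPKM (-2.11, adjusted p = 2.66e-06). HDC, which makes histamine and is the most abundant of the 14, went from 425 and 380.4 to 263 and 247 FPKM (-0.66). The tryptases TPSAB1 (-0.83) and TPSB2 (-0.98), near-identical copies, and ALOX5 (-1.14) fell from levels of at most 2.15 FPKM. LTC4S, leukotriene C4 synthase, which platelets also carry, rose from 10.7 and 11.1 to 21.8 and 20.7 FPKM (0.91). The IgE receptor chain FCER1A, at 132 and 139 FPKM in parental and 132 and 133 FPKM in P/R cells, did not pass (adjusted p = 0.779). With genes under a mean of 5 FPKM left out, 3 members were called lower.

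Red cell genes were split. Of 48 tested members, 8 rose, 10 fell and 30 did not pass, with a median of -0.037; the 8 rises were 3, 4 and 3 without parental library 1, P/R library 1 and P/R library 2. Among the globin genes 2 passed. HBQ1 rose from 51.9 and 52.1 to 62.6 and 61.7 FPKM (0.25, adjusted p = 0.0103), and HBE1 was at 8990.3 FPKM in both parental and 9651 FPKM in both P/R libraries (0.10, adjusted p = 0.0240), while HBA1 had the same value in all 4 libraries. HBB was at 23.4 and 26.8 against 19.5 and 19.8 FPKM (-0.34, adjusted p = 0.0661) and did not pass, nor did HBG1 and HBG2. The call of HBE1 was lost without the variance trend and without the filter on low values, and HBG2 held the same 2 values with the lines exchanged. Globin copies share reads, and for the most abundant the ranked values leave no spread. TFRC, the transferrin receptor, fell from 229 and 260 to 99.6 and 104 FPKM (log2 difference -1.25, adjusted p = 2.66e-06). It lies in a stretch of chromosome 3 that was lower as a whole, and its difference was -0.87 with the neighbours' running median subtracted. The membrane protein RHAG fell by 0.44, the haem enzymes ALAD by 0.45 and FECH by 0.39 and the regulator KLF1 by 0.26, while carbonic anhydrase CA2 rose from 72.9 and 68.8 to 92.4 and 95.9 FPKM (0.40). SLC4A1 and AHSP, genes of late erythroblasts, did not exceed 0.221 FPKM in any library.

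Of 16 tested monocyte and granulocyte genes, 4 rose, 3 fell and 9 did not pass, with a median of -0.011. Of the 16, 1 passed the filter on low values only through P/R libraries, so a difference was built into its selection. Among the 15 that passed it in both lines, 3 rose and 3 fell. CD68, a lysosomal glycoprotein, rose from 7.96 and 8.31 to 22.4 and 22.6 FPKM (log2 difference 1.36), and was still called at 0.88 after its neighbours on chromosome 17 were subtracted. The integrin chain ITGB2 fell from 8.54 and 9.12 to 3.60 and 2.94 FPKM (-1.21). CD14, the defining monocyte marker, did not exceed 0.108 FPKM. Among 25 stem and progenitor genes, 9 rose and 3 fell (median 0.133; 1 or 2 falls when any 1 of the 4 libraries was left out): CD34 rose from 1.02 and 0.921 to 2.81 and 2.69 FPKM (0.93), and of the 9, MEIS1, ANGPT1 and ESAM also stand in the platelet list. Of the 25 stem and progenitor genes, 1 passed the filter only through P/R and 1 only through parental libraries. A difference was built into the selection of both. Among the 23 that passed it in both lines, 8 rose and 3 fell. Of 10 lymphocyte genes, 6 fell and 1 rose: PRF1, perforin, fell from 7.21 and 5.57 to 1.36 and 1.597 FPKM (-1.57) and CD79A, a B cell receptor chain, from 5.46 and 5.69 to 1.48 and 1.73 FPKM (-1.34). The summed level of all 28 listed lymphocyte genes, tested or not, was 86.8 and 82.4 FPKM in parental and 59.9 and 66.9 FPKM in P/R cells. CD3E and MS4A1 were at or near 0 in every library. Whether a change in cell makeup took part was not tested.

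**Figure D3:**
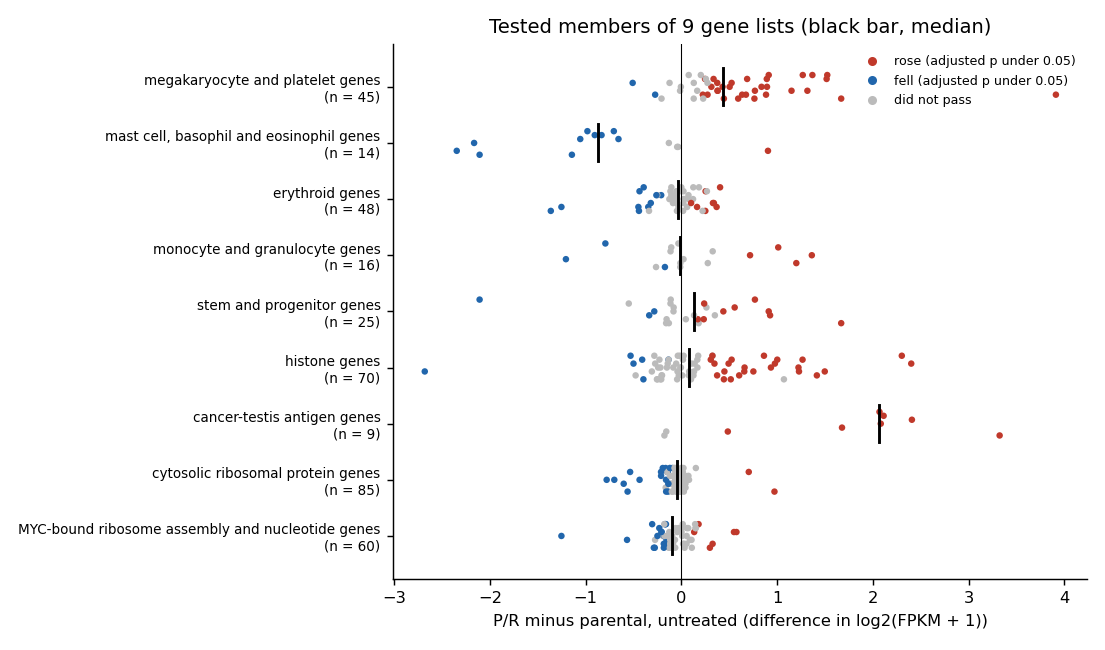
Each point is a tested member of 1 of 9 gene lists, placed by its P/R minus parental difference in log2(FPKM + 1) in untreated cells; red points rose, blue points fell and grey points did not pass, and the black bar is the median. The platelet list has 31 red points and a median of 0.431, the mast cell list 10 blue points, of which 5 passed the filter only through parental libraries, and the erythroid list lies around 0 (-0.037).

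Histone genes rose in part. Of 70 tested members, 24 rose, 6 fell and 40 did not pass (median 0.081; 1 to 3 falls without parental library 1 or either P/R library), and none lies in the stretches of chromosomes described below. Of the 70, 2 passed the filter only through P/R libraries and 4, H2AFJ among them, only through parental libraries, so a difference was built into their selection. Among the 64 that passed it in both lines, 22 rose and 5 fell. HIST1H1C, a linker histone, rose from 29.3 and 27.5 to 153.7 and 154.9 FPKM (log2 difference 2.40, SE 0.048, adjusted p = 1.58e-08), the smallest adjusted p of all genes tested. HIST1H2BK rose from 64.0 and 67.8 to 328.5 and 329.7 FPKM (2.30) and HIST1H2BJ from 4.93 and 7.15 to 14.8 and 16.7 FPKM (1.27). HIST2H2AA3 and HIST2H2AA4, identical copies whose reads cannot be assigned, rose together (1.23 and 1.22). Histone genes that are transcribed in S phase give RNA without a poly(A) tail, and the labels do not say how RNA was selected, so their levels depend on library preparation. The cell cycle lists did not rise: of 46 genes of S phase and E2F targets, 1 rose, 11 fell and 34 did not pass (median -0.113; 5 falls without P/R library 1 and 7 without each of the others in turn), and of 37 mitotic genes, 3 rose and 5 fell (median -0.039; 2 falls when any 1 of the 4 libraries was left out). The called share was 26.1% for the S phase list and 21.6% for the mitotic list, against 23.5% of all genes. CCNE1, cyclin E1, fell from 8.42 and 6.34 to 3.47 and 3.81 FPKM (-0.84). CDC6 (-0.64), RFC4 (-0.49), AURKB (0.65) and TOP2A (-0.41) lie in the chromosome stretches below.

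Keratins KRT18 and KRT8, the paired filament proteins of simple epithelia, rose together, KRT18 from 16.3 and 13.7 to 75.6 and 74.4 FPKM (log2 difference 2.25, adjusted p = 3.16e-07) and KRT8 from 4.11 and 3.75 to 15.997 and 15.7 FPKM (1.77). In the list of intermediate filaments, 5 of 9 rose and 2 fell, and LMNA, lamin A/C, was among the rises (0.61). Of the 9, 1 passed the filter only through P/R libraries, and among the other 8, 4 rose and 2 fell. Of 25 epithelial and stromal markers, 6 were tested, of which 4 rose and 1 fell. CLDN7 passed the filter only through P/R libraries, so a difference was built into its selection. Among the other 5, 3 rose and 1 fell. Beside the keratins, MUC1 rose from 2.56 and 1.38 to 4.53 and 3.70 FPKM (0.81, adjusted p = 0.0322) and CLDN7, in the higher stretch of chromosome 17, from 0.625 and 1.17 to 2.58 and 1.97 FPKM (0.80, adjusted p = 0.0124); 2 rises were called without P/R library 1. The list summed to 84 and 83 FPKM in parental and 151 and 146 FPKM in P/R cells, EPCAM was at 0 and CDH1 did not exceed 0.013 FPKM, and the part of other cells in these values was not tested. Of 29 adhesion genes, 10 rose and 4 fell (median 0.11). Of the 29, 4 passed the filter only through P/R libraries, so a difference was built into their selection. Among the 24 that passed it in both lines, 7 rose and 4 fell. ITGB5, an integrin chain for vitronectin, rose from 20.3 and 16.8 to 66.5 and 58.6 FPKM (1.70, adjusted p = 6.55e-06), and CDH5, the endothelial cadherin, from 1.04 and 0.888 to 2.48 and 2.77 FPKM (0.89).

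Among secreted factors, 11 of 24 tested cytokine, chemokine and growth factor genes rose and 2 fell, with a median of 0.2; 6 rose among members with a mean of at least 5 FPKM. VEGFA rose from 8.27 and 8.17 to 20.1 and 21.0 FPKM (log2 difference 1.23, adjusted p = 8.01e-06), MDK, midkine, from 26.2 and 27.1 to 52.7 and 49.4 FPKM (0.91), CXCL2 from 3.93 and 3.40 to 8.09 and 7.02 FPKM (0.87) and TNF from 8.38 and 7.38 to 14.6 and 15.8 FPKM (0.87). CSF1, the macrophage growth factor, fell from 15.9 and 15.1 to 8.28 and 8.29 FPKM (-0.83). The called share of NF-kB subunits and targets was 26.1%, against 23.5% of all genes. Of 23 genes of NF-kB subunits and targets, 3 rose and 3 fell (median 0.083; 0 to 1 fall without parental library 1 or either P/R library), TNF and LTB (0.69) among the rises.

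In the list of AP-1, immediate early and MAP kinase feedback genes, 7 of 31 tested members rose and 4 fell (median 0.042). Among the rises were 4 dual-specificity phosphatases, which switch MAP kinases off. These were DUSP6, from 4.56 and 4.45 to 14.02 and 11.4 FPKM (log2 difference 1.31, adjusted p = 0.000105), DUSP7 from 24.7 and 24.0 to 47.9 and 47.8 FPKM (0.95) and DUSP5 from 11.5 and 10.4 to 20.6 and 21.8 FPKM (0.90), with DUSP1 (0.59). DUSP2 (-0.12, adjusted p = 0.386) and DUSP10 (0.01, adjusted p = 0.969) did not pass, nor did the feedback genes SPRY1, SPRY2, SPRED1, SPRED2 and ETV4. ETV5 rose by 0.73 although it lies in the lower stretch of chromosome 3. The immediate early gene FOS went the other way, from 10.3 and 8.91 to 6.37 and 6.45 FPKM (-0.51). With 1 library left out, at most 1 fall was called.

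In the JAK-STAT list, 5 of 39 tested members rose and 8 fell (median -0.002). STAT3 fell from 110 and 111 to 73.6 and 73.3 FPKM (log2 difference -0.58, adjusted p = 4.59e-05), with STAT5A (-0.41) and STAT5B (-0.42) beside it on chromosome 17. All 3 lie in the lower stretch of that chromosome, and after subtraction of the neighbours' running median STAT3 was at -0.04 (adjusted p = 0.678) and the sign of STAT5A and STAT5B turned (0.14 and 0.13, neither called). SOCS3, the feedback inhibitor, fell by 0.56 and the receptor chain CSF2RB by 0.79, from 28.5 and 30.9 to 16.4 and 17.04 FPKM; neither lies in a stretch. SH2B3, a negative regulator of JAK2 known as LNK, rose from 18.6 and 19.4 to 27.2 and 29.9 FPKM (0.56). JAK2 itself was at 29.5 and 34.4 against 32.1 and 33.4 FPKM and did not pass (adjusted p = 0.781). Of 27 interferon-stimulated genes, 7 fell and 3 rose (median -0.094). The largest difference was the rise of LGALS3BP, from 6.40 and 6.11 to 12.5 and 13.7 FPKM (0.95, adjusted p = 0.000942). RSAD2 (-0.91) and MX2 (-0.83) fell most, and 2 of the 7 falls, IRF9 and IFI35, lie in lower chromosome stretches. The called share of HLA class I presentation genes was 23.5%, the same as that of all genes tested. HLA class I presentation genes fell in 4 of 17 cases and rose in none (1 or 2 falls when any 1 of the 4 libraries was left out), with HLA-B going from 149 and 148 to 124 and 120.4 FPKM (-0.28).

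The genes that the study's axis concerns differed little. CTNNB1, β-catenin, was at 80.7 and 85.5 FPKM in parental and at 85.3 and 84.6 FPKM in P/R cells (log2 difference 0.03, adjusted p = 0.661). TCF7L2, its DNA-binding partner, was at 6.69 and 6.15 against 7.31 and 8.39 FPKM (0.25, adjusted p = 0.123), with no overlap. JMJD6 was at 30.3 and 31.4 against 34.2 and 36.3 FPKM (0.19, adjusted p = 0.0746), also with no overlap. MYC was lower in P/R cells, 461 FPKM in both libraries against 501 in both (-0.12, adjusted p = 0.0292), and HEXIM1, the P-TEFb inhibitor that serves as a marker of BET inhibition, at 23.2 and 23.01 against 26.7 and 26.5 FPKM (-0.20, adjusted p = 0.0283). Neither MYC nor HEXIM1 passed when any 1 of the 4 libraries was left out (adjusted p from 0.0972 to 0.148 for MYC and from 0.0826 to 0.126 for HEXIM1). HEXIM1, on chromosome 17, was at -0.06 with its neighbours' running median subtracted (adjusted p = 0.521) and at an adjusted p of 0.0573 in the untreated libraries alone. Equal values in replicates, as for MYC, come with the ranked scale and understate the spread. Of 25 genes of BET proteins, P-TEFb and elongation factors, 1 rose and 3 fell (16%, under the 23.5% of all genes), with 0 or 1 in each direction when any 1 of the 4 libraries was left out.

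Of 30 tested WNT ligands, receptors and signal components, 3 rose, 5 fell and 22 did not pass (median -0.07), and 2 fell among members with a mean of at least 5 FPKM. The called share was 26.7%, against 23.5% of all genes. Of the 30, 1 passed the filter only through parental libraries, so its fall was built into its selection. Among the 29 that passed it in both lines, 3 rose and 4 fell. Receptors went both ways. FZD5 rose from 4.24 and 4.87 to 5.79 and 6.57 FPKM (0.37, adjusted p = 0.0331), and the 3 rises of the list were 1, 1 and 0 without parental library 1, P/R library 1 and P/R library 2. WNT5B, a ligand, went from 8.09 and 7.57 to 1.98 and 2.43 FPKM (log2 difference -1.47, adjusted p = 0.000169), FZD7 from 4.45 and 4.26 to 1.19 and 0.984 FPKM (-1.36, adjusted p = 2.18e-05), ROR2, a WNT5 co-receptor, from 2.95 and 3.52 to 0.566 and 0.902 FPKM (-1.29), and FZD2 from 3.01 and 3.50 to 1.70 and 1.56 FPKM (-0.69). ROR2 was under 1 FPKM, the level of the filter, in both untreated P/R libraries, and FZD7 in 1 of them. WNT5B differed by -0.29 in the treated libraries and was not called there (adjusted p = 0.21). Of 14 WNT target genes, 3 rose and 3 fell: ID2 (0.47), JAG1 (0.45) and RNF43 (0.44) rose and NKD2 fell by 0.50. When any 1 of the 4 libraries was left out, 1 rise and 0 or 1 fall were called; AXIN2 and LGR5 were under the filter on low values.

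Of 18 leukaemia genes known to be sensitive to BET inhibition, 4 rose and 5 fell. Beside KIT, CCND2, cyclin D2, fell from 13.3 and 12.3 to 3.01 and 3.15 FPKM (log2 difference -1.76, adjusted p = 2.93e-06) and the repressor GFI1 from 4.61 and 4.15 to 1.12 and 1.48 FPKM (-1.23). Among 22 genes of the BCL2 family and IAPs, 4 rose and 2 fell; 2 rises were called without parental library 1, P/R library 1 or P/R library 2, and 0 or 1 fall when any 1 of the 4 was left out. The called share of this list was 27.3%, against 23.5% of all genes. BCL2L1, which encodes the survival protein BCL-XL, rose from 154 and 149 to 199 and 198 FPKM (0.39, adjusted p = 0.000261). Of 29 genes of the G1 phase and of cell cycle arrest, 9 rose and 2 fell (median 0.075): FDXR rose from 17.4 and 16.4 to 31.3 and 31.1 FPKM (0.85), BTG2 by 0.62 and CDKN1A, p21, from 0.529 and 0.498 to 1.68 and 1.14 FPKM (0.66).

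Genes of drug export and metabolism moved in both directions, 6 of 41 rising and 11 falling (median -0.095); 5 falls were called without P/R library 1, and 7 without parental library 1 or P/R library 2. ABCC3, an exporter of conjugated organic anions, rose from 1.11 and 1.18 to 7.21 and 6.77 FPKM (log2 difference 1.89, adjusted p = 3.56e-06), and GSTP1, a glutathione transferase, from 108.3 and 101.3 to 209 and 209 FPKM (0.99, adjusted p = 2.93e-06). ALDH1A2 rose by 0.97 where ALDH1A1 fell by 2.01. Of the 41, 1 passed the filter on low values only through P/R and 3 only through parental libraries. A difference was built into the selection of these members. Among the 36 that passed it in both lines, 5 rose and 11 fell. ABCB1, the multidrug exporter, was at 37.9 and 34.1 against 39.2 and 41.4 FPKM and did not pass (adjusted p = 0.142).

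Of 60 MYC-bound genes, mostly but not all of ribosome assembly and nucleotide synthesis, 17 fell, 6 rose and 37 did not pass (median -0.092). Fewer falls were called when any 1 of the 4 libraries was left out. The 4 members with the largest differences lie in the chromosome stretches described below: beside TFRC, EIF4A1 rose by 0.55 and TSR1 by 0.58 on chromosome 17, and PRMT5 fell by 0.57 on chromosome 14, and none of these 3 was called with the neighbours' running median subtracted. Of 85 cytosolic ribosomal protein genes, 19 fell and 2 rose (median -0.045), 24.7% against 23.5% of all genes, and 8 to 12 falls were called when any 1 of the 4 libraries was left out. Of the 7 members in the stretches, 6 fell and 1 rose, RPL26 rising by 0.70 and RPL23A falling by 0.70, both on chromosome 17. All 13 protein-coding genes of the mitochondrial genome were tested, and 10 rose and none fell (median 0.447), MT-ND4 from 2174 and 2016 to 3104 FPKM in both (0.57); in the treated libraries its difference was 0.14. Over all 90 respiratory chain subunit genes, 21 rose and 5 fell (median 0.059), with 0 to 3 falls when any 1 of the 4 libraries was left out. PHGDH, the entry enzyme of serine synthesis, fell from 40.9 and 40.5 to 20.7 and 20.2 FPKM (-0.96, adjusted p = 8.55e-06), whereas over the 35 genes of ATF4 and the unfolded protein response 3 rose and 3 fell, with 0 to 2 rises when any 1 of the 4 libraries was left out. Heat shock genes were called in 2 of 22 cases (9.1%) and cholesterol genes in 6 of 27 (22.2%). The share was 17.1% for the ATF4 and unfolded protein response genes and 23.5% for all genes. The 4 cholesterol falls were mostly lost without parental library 2 and all lost without P/R library 2.

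Neighbouring genes moved together in 4 stretches, found as runs of at least 40 tested genes whose running median over 41 genes lay beyond 0.3. On chromosome 17, of 203 tested genes from C17orf97 to DHRS7B, 164 rose and 1 fell (81.3% called), with a median log2 difference of 0.517, a ratio of 1.43. Further along, of 188 genes from LGALS9 to UBTF, 156 fell and 1 rose (83.5%), with a median of -0.523, a ratio of 0.696. The first 92 tested genes of chromosome 14, TTC5 to SPTSSA, had 72 falls and 1 rise (median -0.53), and the last 85 of chromosome 3, ACTL6A to RPL35A, 58 falls and 3 rises (median -0.404). The 568 genes of these stretches were called in 80.3% of cases and gave 17.2% of all calls, and outside them 20.5% of genes were called, 1143 rising and 1048 falling. The same stretches had medians of 0.534, -0.534, -0.47 and -0.481 in the treated libraries. These are RNA levels: no DNA was measured here, and a part of gene dosage in these values was not tested. Of the 45 platelet genes, 3 lie in a stretch (GP1BA, P2RX1 and GP5), and among the other 42, 28 rose and 2 fell. No mast cell, histone or cancer-testis gene of the lists lies in one.

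**Figure D4:**
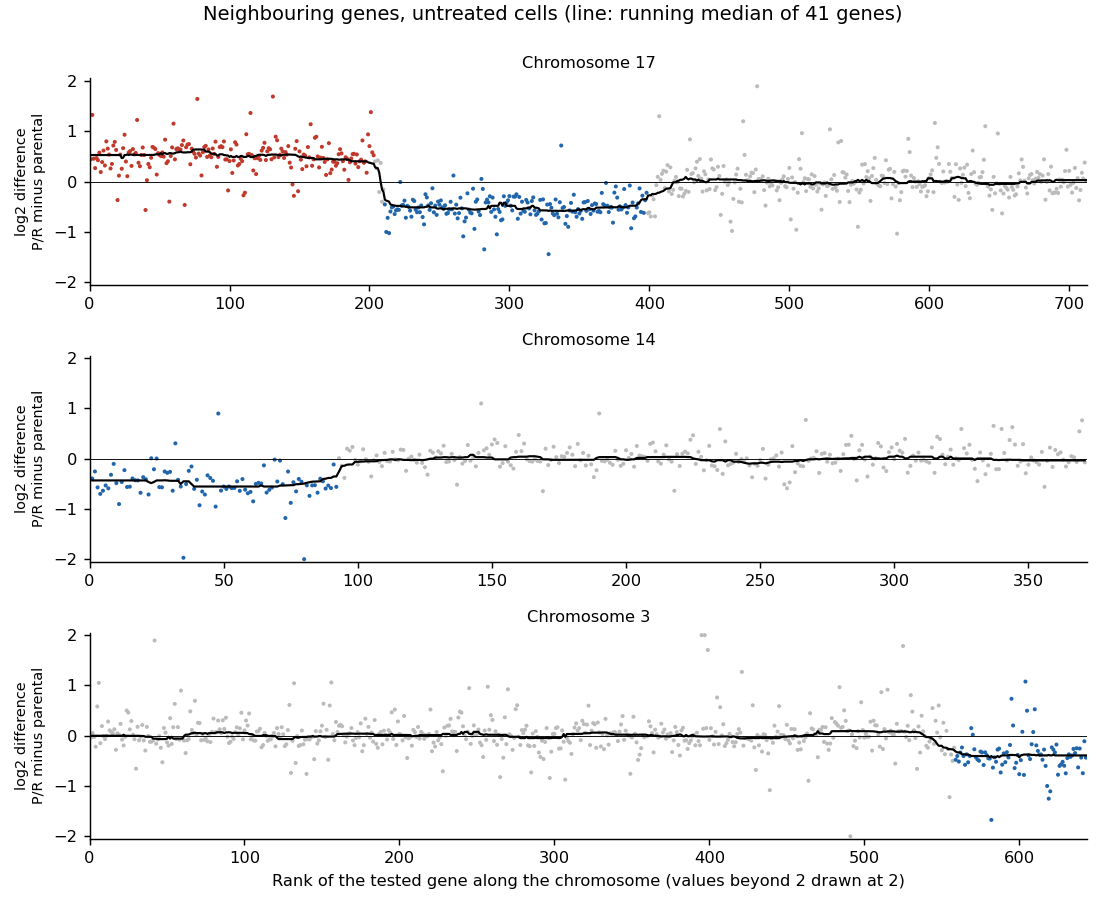
Tested genes of chromosomes 17, 14 and 3 in their order along the chromosome (x axis, rank), with the P/R minus parental log2 difference in untreated cells on the y axis, limited to 2 in each direction; the black line is the running median of 41 genes. Red marks the genes of the higher stretch and blue those of the lower ones, and the line steps from 0.517 to -0.523 in median between the 2 stretches of chromosome 17.

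In the 4 treated libraries, which share no library with the untreated comparison but share the fit's estimate of spread, 2546 of the 2647 called genes (96.2%) had the same sign and 1791 (67.7%) were called in the same direction, while 6 were called in the other. Over all tested genes, 8419 (74.8%) had the same sign and 2617 (23.3%) were called under OTX015 with the sign they had without it. Of the 200 genes that differed by at least 1, 198 had the same sign and 184 (92%) were called. PF4 was at 1.23 and 1.71 FPKM in treated parental and at 43.2 and 44.0 FPKM in treated P/R cells (log2 difference 4.18), GALNS at 61.7 and 61.3 against 7.91 and 6.85 FPKM (-2.90), and KIT at 9.79 and 9.86 against 1.35 and 1.38 FPKM (-2.19). GAGE12B was listed at 0 in both treated P/R libraries. The line difference itself changed with drug, tested as an interaction, for 9 genes (0.0800%), with 1080 at an unadjusted p under 0.05; 7 of the 9 were among the 2647. GP6 had a line difference of 0.89 without drug and 2.09 with it, since its level was 6.27 and 5.89 FPKM in treated parental and 30.5 and 27.9 FPKM in treated P/R cells.

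**Figure D5:**
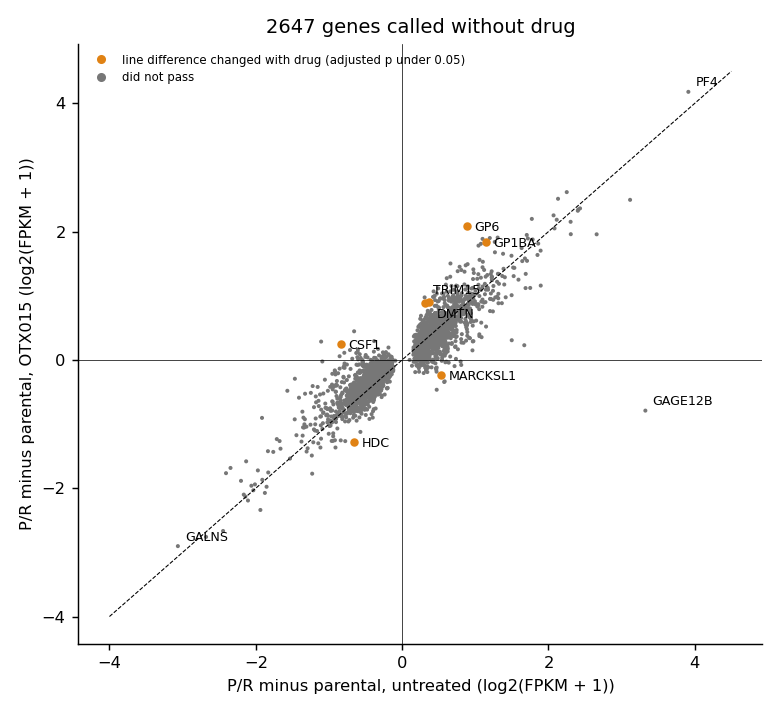
Each of the 2647 genes called without drug is placed by its P/R minus parental difference in log2(FPKM + 1) in untreated cells (x axis) and in cells under OTX015 (y axis), with equality as the dashed line. Most points lie near that line, from GALNS (-3.06 and -2.90) to PF4 (3.91 and 4.18); GAGE12B does not, and orange marks the 7 genes whose line difference changed with drug.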

How the data were processed

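RNA was measured by sequencing in 8 libraries of HEL cells, 2 in each of 4 groups taken from the labels, and the 4 untreated ones carry the comparison. The authors deposited 1 table of 19718 genes whose values were taken as FPKM, per the submitters' processing notes (TopHat2 and Cufflinks 2.0, genome hg19) and from the values. Every column has the same total of 678133 and sorted values that differ by at most 0.136% at 1 FPKM or more, as quantile normalization leaves them; no counts are known, so no depth or counting interval can be given, and the spread of abundant genes is understated.

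Genes with at least 1 FPKM in at least 2 libraries were kept (11255). Differences in log2(FPKM + 1) were tested with limma 3.58.1 in R 4.3.3 (4 group means over 8 libraries, variance trend), with Benjamini-Hochberg adjustment over all tested genes and a threshold of 0.05; SE and adjusted p come from that fit. Quoted p-values measure only the spread between these libraries. The scripts were tested on simulated data. Of the symbols, 28 had turned into numbers and were named through their Ensembl IDs; 11227 genes were placed in chromosomal order by GENCODE 29, whose build differs from hg19, so no gene coordinates are given. Promoters are from RefSeq (GRCh38.p14). Replicate numbers did not pair the libraries.

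Named genes were the study's axis and HEXIM1, the 15 largest rises and falls among called genes with at least 5 FPKM in the higher group and no overlap, and from each list up to 4 called members with the largest differences and up to 2 defining members that did not pass. Further list members, such as GP6, TBXA2R, ITGB3, FECH, CA2, LTB and SH2B3, were named after their values were seen. Counts of a list cover its members that passed the filter on low values. In other lists too, such as those of red cell, interferon-stimulated, JAK-STAT and AP-1 genes, some members passed it only through the libraries of a single line. A difference was built into the selection of those members. A few genes are not reported here. The members, lists and rules were chosen with earlier results of these data known. Alternatives were the pseudocount, the filter, the variance trend, the libraries fitted, a replicate block, median centring, subtraction of the running median of 41 neighbouring genes, and leaving out each library; leaving out the genes of the 4 chromosome stretches was added after seeing the data.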

Additional observations from a re-analysis of the deposited data

Results flagged for a closer look

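For 9 genes the difference between the lines was not the same with and without OTX015 (limma's interaction term, Benjamini-Hochberg adjusted). The values below are the treated minus the untreated line difference in log2(FPKM + 1). The platelet receptors GP6 and GP1BA were higher in P/R cells in both settings and more so under drug. For GP6 the change was 1.2 (adjusted p = 0.00412): parental libraries had 25.3 and 25.2 FPKM without and 6.27 and 5.89 FPKM with drug, P/R libraries 48.6 and 46.9 FPKM without and 30.5 and 27.9 FPKM with it. For GP1BA the change was 0.687 (adjusted p = 0.0478), with parental libraries at 31.3 and 29.9 FPKM without and 12.6 and 13.9 FPKM with drug. LAT, an adaptor of T cell and platelet receptor signalling, changed by 0.623 (adjusted p = 0.0478); it did not pass without drug (237 and 228 against 254 and 254 FPKM) and was at 69.2 and 68.8 against 125 and 110.0 FPKM with it.

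HDC, the histamine-forming enzyme, changed by -0.62 (adjusted p = 0.0478), the treated P/R libraries being at 171 and 175 FPKM and the treated parental ones at 411 and 430.2 FPKM. CSF1 changed by 1.08 (adjusted p = 0.0478): it was lower in P/R cells without drug, and under drug both lines were low, at 1.61 and 1.92 FPKM in parental and 2.50 and 2.08 FPKM in P/R cells. MARCKSL1 changed by -0.764 (adjusted p = 0.00412), from 41.4 and 41.6 against 60.4 and 60.8 FPKM without drug to 180.0 and 189.7 against 160.0 and 155 FPKM with it. The nuclear receptor NR5A1 changed by 0.689 (adjusted p = 0.0260) without having passed in untreated cells, the red cell membrane protein DMTN by 0.541 (adjusted p = 0.0424) and TRIM15 by 0.561 (adjusted p = 0.0478).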

How the results depend on the processing

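Of the 2647 genes, 200 (112 higher, 88 lower) differed by at least 1 on the log2 scale. The count of 2647 genes called between the untreated lines was 2602 and 2646 with pseudocounts of 0.1 and 5, 2083 without a filter, 2360 without a variance trend, 2475 with the untreated libraries alone and 2026 with the neighbours' running median subtracted. With 1 library left out it was 1614 to 2001 (higher 827 to 1014, lower 787 to 987), 1614 without P/R replicate 1, 1689 without P/R replicate 2 and 1787 without parental replicate 1. The replicate block gave 2517; replicate numbers did not pair the libraries (correlation of deviations 0.007), so it is not a blocked design. For the treated lines the count of 2747 was 1763 to 2215 with 1 library left out (higher 984 to 1187, lower 779 to 1028), 2555 with the replicate block and 2585 with crossed numbers, where the correlation was -0.12. The 9 genes whose line difference changed with drug became 4 and 29 with pseudocounts of 0.1 and 5, 26 without a filter, 3 without a variance trend, 2 with the replicate block and 2 to 8 with 1 library left out.

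Of 188 named genes, 176 were called and 122 of them in every setting that tested them, up to 14. With the running median of neighbours subtracted, 6 changed sign: CDK12 (0.17), TOP2A (0.17), DNAJB11 (0.0098), POLR2A (-0.10), STAT5A (0.14) and STAT5B (0.13). Unknown depth, 2 libraries a line and a single resistant derivative limit every value.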
